A study of Homo sapiens with 19 samples.

Results

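The splice forms of 5 integrin genes, ITGA3, ITGA6, ITGAV, ITGB1 and ITGB4, were followed through an epithelial-mesenchymal transition (EMT) and after knockdown of AKAP8. All splicing events that rMATS listed for these genes were taken, which gave 120 distinct events among 100239 events of 11998 genes. They comprised 86 skipped (cassette) exons, 29 pairs of mutually exclusive exons (MXE), 3 retained introns, 1 alternative 3′ splice site and 1 alternative 5′ splice site. ITGB4 contributed 33 events, ITGB1 28, ITGA3 27, ITGA6 18 and ITGAV 14.

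The cells were HMLE/Twist-ER, a line of human mammary epithelial cells immortalized with Tert that express a fusion of the transcription factor Twist with an estrogen receptor, which tamoxifen (TAM) switches on. Untreated cells were in the epithelial state (EPI) and cells kept in 20 nM TAM until their shape was mesenchymal were in the mesenchymal state (MES). Every RNA-seq library came from cells that stably carried a lentiviral shRNA. This was either a non-specific control or 1 directed against AKAP8, an RNA-binding protein that acts on splicing. Poly(A) RNA gave 3 EPI control, 3 EPI shAKAP8, 3 MES control and 2 MES shAKAP8 libraries. Summed over cassette exon events, which can count a read more than once, each had 31258177 to 40852217 junction reads. The 4 groups are thus states of 1 immortalized line, without a second line or tissue beside it, and nothing in the labels says how far the replicates of a group were cultured apart. The p-values rest on the spread between these libraries. In the tests of events and genes that spread was drawn toward the spread of all other events or genes.

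Integrins are receptors made of an alpha and a beta chain that hold a cell to its matrix. Laminin is bound by the alpha 3 and alpha 6 chains, and alpha 6 joined to beta 4 forms the core of the hemidesmosome, which anchors basal epithelial cells through their keratin filaments. Beta 1 pairs with many alpha chains, and alpha V chains bind fibronectin and vitronectin. Alternative splicing near the end of several of these genes swaps or lengthens the cytoplasmic tail, the stretch inside the cell to which adaptor proteins bind.

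The tails that splicing exchanges are shown first, because the largest difference found in a tail exon concerned them. In ITGA6, on the plus strand of GRCh37, exon 25 (chr2:173366500-173366629, 130 nt) codes a tail and its stop codon. Transcripts with it make the A form, and transcripts that skip it read on into the last exon and make the B form. ITGA3, also on a plus strand, is built alike, with a 142-nt exon 25 at chr17:48165589-48165730. The coding bases of each tail from its splice site to the stop codon are given 5′ to 3′ from GRCh37, with the stop codon in capitals.
ITGA6 A form, chr2:173366500-173366607: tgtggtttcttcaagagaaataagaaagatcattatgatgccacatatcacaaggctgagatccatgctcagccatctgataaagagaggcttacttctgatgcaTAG
ITGA6 B form, chr2:173368819-173368980: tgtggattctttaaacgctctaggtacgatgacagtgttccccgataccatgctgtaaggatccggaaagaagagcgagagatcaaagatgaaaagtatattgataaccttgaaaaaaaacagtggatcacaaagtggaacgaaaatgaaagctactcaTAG
ITGA3 A form, chr17:48165589-48165699: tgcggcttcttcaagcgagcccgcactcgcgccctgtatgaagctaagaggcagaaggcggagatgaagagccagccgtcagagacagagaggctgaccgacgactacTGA
ITGA3 B form, chr17:48166474-48166629: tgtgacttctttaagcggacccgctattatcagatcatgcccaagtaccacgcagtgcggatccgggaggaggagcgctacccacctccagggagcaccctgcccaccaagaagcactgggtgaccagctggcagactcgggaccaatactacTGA
The A tails span 108 bases in ITGA6 and 111 in ITGA3, and the B tails 162 and 156. The alternative exons run on past the stop codon for 22 bases in ITGA6 and 31 in ITGA3. In global alignments the A tails of the 2 genes had 62.7% identical positions (74 of 118) and the B tails 57.7% (105 of 182). Within a gene, the A and B tails had 49.4% in ITGA6 and 55.4% in ITGA3.

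The target of the shRNA was examined first. AKAP8 stood at 244, 310 and 245 scaled junction reads in the EPI controls and at 121, 98.8 and 125 in the EPI shAKAP8 libraries. In MES it stood at 382, 196 and 248 in the controls and at 108 and 122 after knockdown. The knockdown libraries lay below all controls of their state. The log2 fold change was -1.20 (SE 0.25) in EPI and -1.20 (SE 0.28) in MES, and limma on all genes gave an adjusted p of 0.066 in EPI, which missed the threshold of 0.05, and of 0.032 in MES. The MES call was lost when any of 5 libraries was left out, EPI control 1, MES control 1 or 3 or either MES shAKAP8 library, with an adjusted p of up to 0.18 (limma). The tamoxifen labels were checked in the same way. All 4 epithelial markers with a value were lower in the MES controls, among them CDH1 (E-cadherin, log2 fold change -4.34), and all 4 mesenchymal markers were higher, among them the intermediate filament gene VIM (1.77), FN1 (1.86) and the transcription factor ZEB1 (4.29). The other 5 epithelial markers (EPCAM, KRT5, KRT14, KRT8, KRT18) and CDH2 and TWIST1 had no value. None of 6 markers of leukocytes, endothelium and muscle had a value either, so their levels were not measured.

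The use of an exon is given as PSI (percent spliced in), the share of junction reads that include it after correction for length, in percent. Differences in PSI (∆PSI) are in percentage points. An event was tested with 20 or more junction reads per library on average, and was called changed at an adjusted p under 0.05 with a ∆PSI of at least 10 points. Of the 120 integrin events 116 were tested in some comparison, 110 in the EPI knockdown, 61 in the MES knockdown and 104 in EMT (MES control against EPI control). The EPI and EMT comparisons share the EPI controls, and the MES and EMT comparisons share 2 MES controls. The third MES control was listed in the EMT tables only.

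No integrin event was called changed in any comparison. In the EPI knockdown 0 of 110 integrin events were changed, where 0.0492% of all 65008 tested events were. In the MES knockdown it was 0 of 61, where 0.054% of 59288 were, and in EMT 0 of 104, where 1.6% of 67451 were. With shares this low in the knockdowns, a count of 0 among so few events is no result about these genes. The difference of the knockdown effects between the states was called for 0 of 57 integrin events, beside 0.00989% of 40444. These calls come from a quasi-binomial test with limma-moderated dispersion. At an unadjusted p under 0.05 there were 11 integrin events in the EPI knockdown (10% of those tested, 4.76% of all events), 2 in the MES knockdown (3.28% against 3.88%) and 14 in EMT (13.5% against 11.6%). A second method, limma on the logit of PSI, called 0 integrin events in each comparison as well, with 3, 3 and 15 at an unadjusted p under 0.05.

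By the adjusted p alone, 4 of 104 integrin events passed in EMT (2.78% of all events did), 0 of 110 in the EPI knockdown (0.0877%) and 0 of 61 in the MES knockdown (0.086%). The 4 events were the ITGA6 tail exon, MXE pairs of ITGA6 and ITGB4 and a cassette exon of ITGA3. The median size of ∆PSI over integrin events was 0.0655 points in the EPI knockdown, 0.164 in the MES knockdown and 0.0744 in EMT. Over all events it was 0.777, 1.01 and 0.934 points. A ∆PSI of 5 points or more was seen in 2 integrin events in EPI (1.82%, all events 10.3%), 1 in MES (1.64%, all events 13.6%) and 5 in EMT (4.81%, all events 14.7%). Integrin events and all events were not matched for read depth or PSI, so these gaps do not set the integrin events apart.

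**Figure D1:**
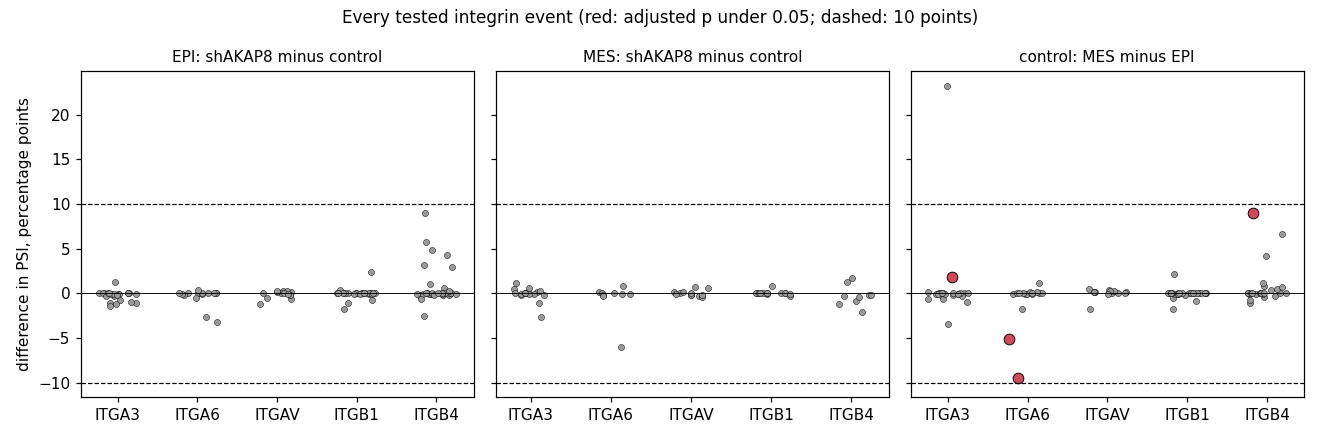
Difference in PSI (y axis, percentage points) of every tested integrin event by gene, for shAKAP8 minus control in EPI and in MES and for MES minus EPI control. Each point is 1 event, red points have an adjusted p under 0.05 and dashed lines mark 10 points. Most points lie on 0, and the 4 red points, all in EMT, belong to ITGA3, ITGA6 and ITGB4.

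Most tested cassette exons of the 5 genes were included in nearly all transcripts. Of 82 cassette exon events tested, 80 had a value in the EPI controls, and their mean PSI was 95% or more in 74, 5% or less in 4 and in between in 2. The 4 rarely used exons were a 117-nt exon of ITGA6 (0.103 to 0.16% in the EPI controls), the 81-nt exon of ITGB1, and the 210-nt and 159-nt exons of ITGB4. Both events in between belonged to ITGB4.

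ITGA6 used its A tail less in MES than in EPI. The PSI of the 130-nt tail exon was 98.7, 97.7 and 97.9% in the EPI controls, from 4542, 4374 and 4451 including and 31, 51 and 47 skipping reads. In the MES controls it was 88.1, 87.3 and 90.3%, from 828, 1184 and 1383 including and 56, 86 and 74 skipping reads. The groups did not overlap. The mean went from 98.1% ± 0.49 (SD, n = 3) to 88.6% ± 1.57 (SD, n = 3), a ∆PSI of -9.52 points with an adjusted p of 3.1e-18 in the quasi-binomial test moderated with limma. The adjusted p was 0.049 with limma on the logit of PSI. The ∆PSI is below the 10 points asked of a change, so it counted as none. Without the third MES control it was -10.4 points and would count.

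After AKAP8 knockdown the ITGA6 tail exon stood at 96.7, 98.5 and 97.7% in EPI. Libraries 1 and 3 lay below all 3 EPI controls, library 3 by less than the rounding shown, and library 2 lay within their range. In MES it stood at 81.2 and 82.2%, from 700 and 1005 including and 81 and 109 skipping reads, below all 3 MES controls. The share of the B form was thus 1.9% ± 0.49 (SD, n = 3) in EPI controls, 2.39% ± 0.90 (SD, n = 3) in EPI shAKAP8, 11.4% ± 1.57 (SD, n = 3) in MES controls and 18.3% ± 0.68 (SD, n = 2) in MES shAKAP8. The ∆PSI of the knockdown was -0.49 points in EPI (adjusted p = 0.71) and -6.01 points in MES against the 2 controls of that table. In MES the unadjusted p was 0.0395 and the adjusted p 0.76 in the quasi-binomial test with limma, so the MES difference did not pass. Against all 3 MES controls it was -6.89 points. Taken so, the knockdown effect in MES differed from that in EPI by -6.40 points, with an adjusted p of 0.76 (limma-moderated test), so that a difference between the states was not shown either.

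**Figure D2:**
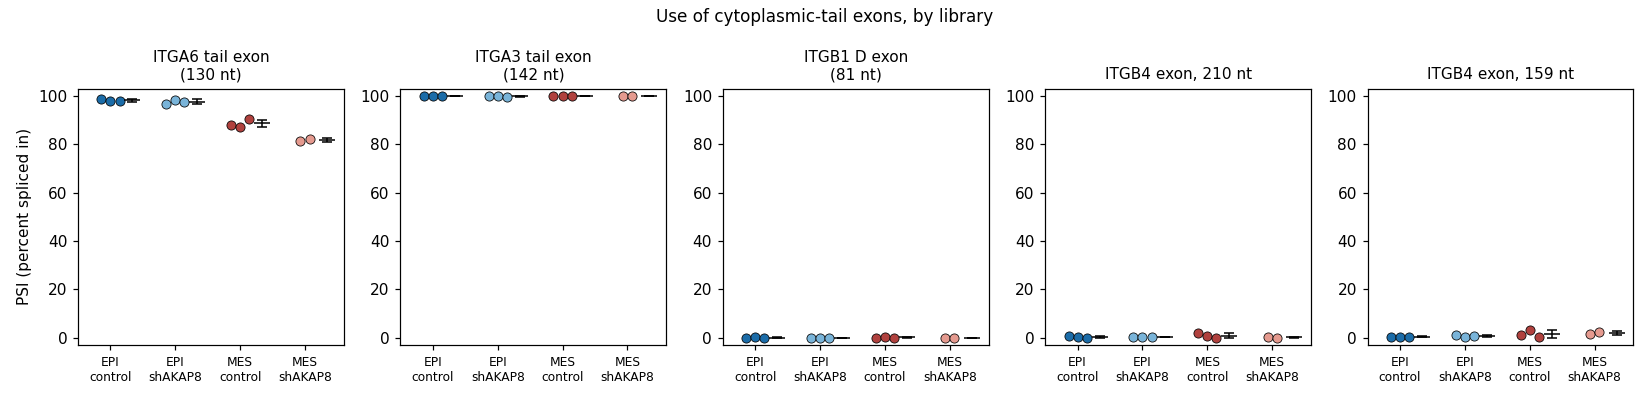
PSI (y axis, percent) of 5 alternative tail exons in each of the 11 libraries, by group (x axis); each point is 1 library, and the bar beside it gives the mean and SD of the group. The ITGA6 exon is at 97.7 to 98.7% in EPI controls, 87.3 to 90.3% in MES controls and 81.2 to 82.2% in MES shAKAP8, while the ITGA3 exon stays at 99.4% or above and the others at 3.3% or below.

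Both the level of the gene and the share of the forms entered these values, so the reads of each form were scaled to library size and given per junction. The A form had 2154, 2152 and 2301 scaled reads in the EPI controls and 406, 604 and 729 in the MES controls. The B form had 29.4, 50.2 and 48.6 in the EPI controls and 54.9, 87.7 and 78.0 in the MES controls. Neither form overlapped between the states. The mean of the A form in MES controls was 0.263 times that in EPI controls and that of the B form 1.72 times. An exact two-sided permutation test gave p = 0.1 for each form (n = 3 and 3), the smallest value that this design allows, so it cannot reach 0.05. In MES shAKAP8 the A form had 335 and 502 and the B form 77.6 and 109 scaled reads, and both overlapped the MES controls (exact permutation p = 0.4 and 0.6, n = 3 and 2, smallest possible 0.2). In EPI the knockdown means were 1949 ± 284 (SD, n = 3) for the A form and 48.4 ± 20.2 (SD, n = 3) for the B form, again overlapping the controls (unpaired exact permutation p = 0.3 and 0.6). Taken in pairs by their place in the tables, the A form was lower after knockdown in 3 of 3 pairs in EPI (2154 and 1906, 2152 and 1690, 2301 and 2252). In RNA of whole cultures, fewer cells of a kind and less RNA per cell cannot be told apart.

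**Figure D3:**
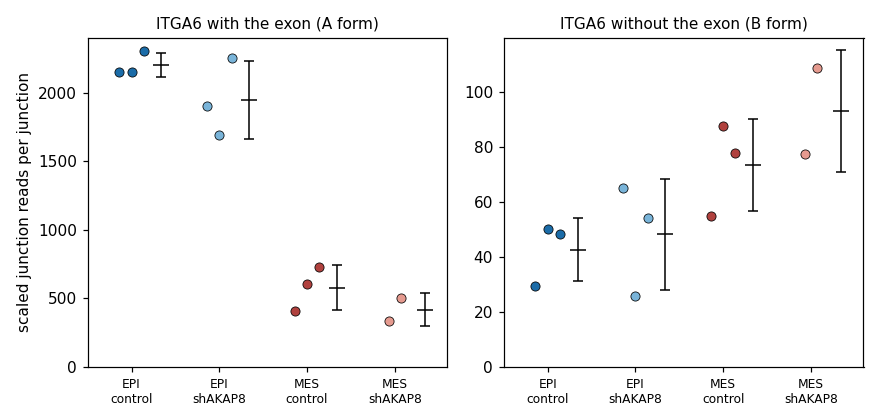
Junction reads of the ITGA6 A form (with the 130-nt exon, left) and B form (without it, right), scaled to library size and per junction (y axes, linear from 0, different ranges), by group (x axis). Points are libraries, and bars give mean and SD; the A form has 2152 to 2301 in EPI controls and 406 to 729 in MES controls, and the B form 29.4 to 50.2 and 54.9 to 87.7.

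A further ITGA6 event passed by the adjusted p alone. It paired an 80-nt exon (chr2:173332209-173332288) with a 256-nt exon (chr2:173333853-173334108) as mutually exclusive, in the part that codes the extracellular chain. In the tested cassette events both exons had a mean above 95% in the EPI controls, so the value compares reads of neighbouring junctions and is not a share of exclusive forms. It was 41.0, 39.3 and 37.5% in EPI controls and 34.2, 32.6 and 35.7% in MES controls, without overlap. The ∆PSI was -5.15 points (adjusted p = 0.032, quasi-binomial test with limma). In the EPI shAKAP8 libraries it was 38.0, 32.8 and 37.3% (∆PSI -3.25, limma-moderated adjusted p = 0.68), and the event was not listed for the MES knockdown. The EMT difference did not pass with limma on the logit of PSI (adjusted p = 0.44) and without any 1 of EPI controls 1 and 2 and MES controls 1, 2 and 3 (up to 0.35).

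ITGA3, which carries the other exchangeable alpha tail, showed no such shift. Its 142-nt tail exon had a PSI of 100, 100 and 99.8% in the EPI controls and of 99.9, 100 and 99.8% in the MES controls. After knockdown it was 99.9, 100 and 99.4% in EPI and 100 and 99.9% in MES. Skipping reads numbered 0 to 7 per library against 1665 to 3662 including reads, so nearly all ITGA3 transcripts with this junction carried the A tail. Where no skipping read was seen, 3 reads would have meant a B form of 0.164 to 0.359%, a limit that covers counting error only. The ∆PSI was -0.15, 0.04 and -0.04 points in the EPI knockdown, the MES knockdown and EMT.

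The largest ∆PSI of any integrin event in EMT lay elsewhere in ITGA3, in a retained intron between chr17:48154045 and chr17:48154743, far before the tail. Its PSI was 53.0, 43.3 and 58.5% in the EPI controls and 77.8, 78.6 and 68.2% in the MES controls. The ∆PSI was 23.3 points and the adjusted p 0.22 (limma-moderated test), from 128.8 junction reads or fewer per library on average, so it did not pass. With the place of a library in its list as a replicate block the adjusted p was 0.018 (limma-moderated test), and the event would count as changed. The groups did not overlap, nor did MES shAKAP8 (76.1 and 78.1%) overlap any EPI library. The event needs care, because a 148-nt cassette exon (chr17:48154338-48154485) lies within this intron and both events count the same skipping reads, 43, 61 and 38 in EPI controls and 12, 12 and 14 in MES controls. Scored as a cassette, that exon was used at 97.1, 96.8 and 97.1% in EPI controls and at 99, 98.9 and 98.4% in MES controls, with a ∆PSI of 1.78 points (adjusted p = 0.04, limma-moderated test). That p did not hold without any 1 of 5 controls (EPI 1, 2 or 3, MES 1 or 2, up to 0.28) or with limma on the logit of PSI (0.46), nor with the same replicate block (0.19).

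ITGB1 has a D tail, known from striated muscle, which an 81-nt exon on the minus strand provides (chr10:33195991-33196071). The first 75 bases of this exon up to and including its stop codon, in capitals, are given because they mark the D form among the reads.
ITGB1 D exon, chr10:33195997-33196071: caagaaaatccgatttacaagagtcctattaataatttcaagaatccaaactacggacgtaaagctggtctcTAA
The exon was used at 0.0691, 0.164 and 0% in the EPI controls, 0.0587, 0.0949 and 0.0356% in EPI shAKAP8, 0.0853, 0.19 and 0.0849% in the MES controls and 0.0862 and 0.0992% in MES shAKAP8. These values rest on 0 to 16 including reads per library against 3368 to 4712 skipping reads. All groups overlapped, and no ∆PSI exceeded 0.0447 points in size. The EPI control without an including read allows a share of up to 0.0357%. Elsewhere in ITGB1 the largest EMT difference was 2.14 points (adjusted p = 0.30, limma-moderated test), for an MXE pair of a 141-nt exon (chr10:33209173-33209313) and a 90-nt exon (chr10:33211185-33211274), each above 95% when scored singly in the EPI controls, so that here too neighbouring junctions are compared. Without EPI control 3 it was 3.13 points (adjusted p = 0.005, limma-moderated test).

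ITGB4 has by far the longest tail. In the reference transcript a hydrophobic stretch of 19 residues, found by its composition, ended at residue 732 of 1822, which leaves 1090 residues behind it, against 34 to 48 in the other 4 chains. Tail exons were searched in ITGA3, ITGA6, ITGB1 and ITGB4 only, and of 13 alternative ones with enough reads 10 were in ITGB4. The inclusion of a 210-nt exon gives the form known as beta 4C and that of a 159-nt exon the form beta 4B, while beta 4A lacks both. The reference transcript holds the 210-nt exon, so the 1822 residues are those of the beta 4C form. Both exons are given on the plus strand with 20 intron bases on each side, the exon in capitals.
ITGB4 210-nt exon, chr17:73749826-73750075: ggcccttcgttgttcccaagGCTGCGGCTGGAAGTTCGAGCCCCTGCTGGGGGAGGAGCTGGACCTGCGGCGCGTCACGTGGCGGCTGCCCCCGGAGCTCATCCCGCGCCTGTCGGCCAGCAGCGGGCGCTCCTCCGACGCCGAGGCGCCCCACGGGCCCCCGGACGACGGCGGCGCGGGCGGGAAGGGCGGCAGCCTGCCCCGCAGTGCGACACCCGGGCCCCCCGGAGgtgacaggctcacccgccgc
ITGB4 159-nt exon, chr17:73751116-73751314: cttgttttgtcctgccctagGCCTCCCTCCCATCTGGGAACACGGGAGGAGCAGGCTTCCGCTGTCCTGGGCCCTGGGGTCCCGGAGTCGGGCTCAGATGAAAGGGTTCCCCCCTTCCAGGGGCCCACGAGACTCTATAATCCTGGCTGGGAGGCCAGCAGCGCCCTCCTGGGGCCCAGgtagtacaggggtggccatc
The 210-nt exon was used at 0.84, 0.523 and 0.0847% in EPI controls, 0.134, 0.406 and 0.314% in EPI shAKAP8, 2.03, 0.76 and 0% in MES controls and 0.429 and 0% in MES shAKAP8. The 159-nt exon was used at 0.526, 0.233 and 0.465% in EPI controls, 1.22, 0.315 and 0.593% in EPI shAKAP8, 1.20, 3.30 and 0.262% in MES controls and 1.44 and 2.6% in MES shAKAP8. The form without both exons thus made up nearly all ITGB4 in every group. The EMT difference of the 159-nt exon, 1.18 points, had an unadjusted p of 0.00307 and an adjusted p of 0.10 (limma-moderated test). It rested on 2 to 17 including reads in the MES controls, and the groups overlapped. Without MES control 3 it was 1.84 points (adjusted p = 0.0055, limma-moderated test).

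The other 8 alternative tail exons of ITGB4 were included at 90% or more in every library that listed them. The lowest and most variable was a 150-nt exon (chr17:73751782-73751931), at 95.1, 96.5 and 96.5% in EPI controls, 94.6, 90.4 and 95.3% in EPI shAKAP8, 99.3, 95.9 and 95% in MES controls and 98.6 and 92.5% in MES shAKAP8. Its ∆PSI in the EPI knockdown was -2.59 points, with an unadjusted p of 0.00641 and an adjusted p of 0.71 (limma-moderated test). Paired as mutually exclusive with the 240-nt exon before it (chr17:73750657-73750896), it belonged to the ITGB4 event that passed by the adjusted p alone in EMT. The PSI of that pair was 54.3, 52.7 and 54.9% in EPI controls, 55.5, 70.6 and 62.7% in EPI shAKAP8 and 55.5, 69.0 and 64.3% in MES controls. The ∆PSI was 8.95 points in EMT (adjusted p = 0.0096) and 8.99 points in the EPI knockdown (adjusted p = 0.68, both limma-moderated). Without MES control 2 the EMT difference was 5.93 points (adjusted p = 0.36), without MES control 3 it was 8.27 points (0.094), without MES control 1 it was 12.7 points and would count as changed, and without EPI shAKAP8 library 1 the knockdown difference was 12.7 points (1.3e-05), all from the same limma-moderated test. With limma on the logit of PSI the EMT difference did not pass by the adjusted p (0.46). The comparisons have the EPI controls in common, whose SD of 1.15 points (n = 3) was small beside that of EPI shAKAP8 (7.55, n = 3) and MES controls (6.83, n = 3). Scored singly, the 240-nt exon was included at 99.8% or more and the 150-nt exon at 90.4% or more, so most reads had both exons and the pair compares neighbouring junctions more than 2 exclusive forms.

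A 34-nt exon of the ITGB4 tail (chr17:73735753-73735786) was included at 99.8% or more when counted from its usual upstream neighbour. Counted from an exon further upstream, an event chosen after its values were seen, it stood at 96.5, 92.7 and 90.9% in EPI controls, 98.3, 98.6 and 97.7% in EPI shAKAP8 and 100% in all 3 MES controls. The groups did not overlap, but the MES value rested on 38, 77 and 98 including reads. The ∆PSI was 4.83 points in the EPI knockdown (adjusted p = 0.45) and 6.63 points in EMT (adjusted p = 0.083, both limma-moderated), and neither passed.

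ITGAV was left out of the search for alternative tail exons. All 11 of its tested cassette exons had a mean PSI of 95% or more in the EPI controls. Its largest EMT difference was that of an MXE pair of a 115-nt exon (chr2:187490200-187490314) and a 46-nt exon (chr2:187498056-187498101), each above 95% when scored singly in the EPI controls. This value, again one of neighbouring junctions, was 58.1, 55.2 and 52.1% in EPI controls and 53.7, 52.9 and 53.6% in MES controls. The ∆PSI was -1.77 points with an adjusted p of 0.83 (limma-moderated test), and the groups overlapped.

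The levels of 2 integrin genes differed widely between the states. Gene levels were summed from the junction reads at cassette exons, scaled to library size, and a gene was called changed at an adjusted p under 0.05 and an absolute log2 fold change over 1. Of the 5 genes 2 were changed in EMT, both lower, where 12.5% of 9014 genes were changed in either direction. In the EPI knockdown 0 of 5 were changed (0.189% of genes, 17 in all, and 33 with EPI libraries paired by a replicate block, again 0 of 5) and in the MES knockdown 0 of 5 (2.27%). These sums grow with the number of listed exons, so they compare libraries within a gene and not genes with each other.

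The subunits of the hemidesmosomal receptor fell in MES. ITGA6 had 29141, 29863 and 33024 scaled reads in EPI controls and 7095, 9532 and 11332 in MES controls, a log2 fold change of -1.74 (SE 0.19, limma adjusted p = 2.3e-05). ITGB4 had 12068, 16166 and 14640 in EPI controls and 1551, 2446 and 3357 in MES controls, a log2 fold change of -2.60 (SE 0.30, limma adjusted p = 5e-05). Neither gene overlapped between the states. After knockdown ITGB4 had 8541, 11940 and 10367 scaled reads in EPI and 985 and 2276 in MES. Its log2 fold change was -0.48 in EPI (limma adjusted p = 0.70), where all 3 knockdown libraries lay below the 3 controls, and -0.64 in MES (limma adjusted p = 0.29), where the groups overlapped. For ITGA6 the knockdown gave -0.17 in EPI and -0.24 in MES, both with overlapping groups. In the EPI pairs ITGA6 and ITGB4 were lower after knockdown in 3 of 3, and with the pairs as a replicate block the limma adjusted p was 0.72 for ITGA6 and 0.31 for ITGB4.

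The other 3 genes did not pass in any comparison. ITGAV had 6844, 5414 and 9027 scaled reads in EPI controls and 9052, 12536 and 10344 in MES controls. Its log2 fold change was 0.60 (SE 0.25, limma adjusted p = 0.093), and the states were separated only by the narrow gap between 9027 and 9052. Without EPI control 3 it was 0.79 (limma adjusted p = 0.050), and without EPI shAKAP8 library 2, which changes the shared spread, 0.60 (limma adjusted p = 0.017). ITGA3 had means of 29076 ± 3125 (SD, n = 3) in EPI and 25847 ± 3022 (SD, n = 3) in MES controls, and ITGB1 of 77576 ± 9463 (SD, n = 3) and 85578 ± 9108 (SD, n = 3). Their EMT log2 fold changes were -0.17 (SE 0.17) and 0.14 (SE 0.17), with limma adjusted p of 0.51 and 0.58. In the knockdowns the log2 fold changes of ITGA3, ITGAV and ITGB1 lay between -0.30 and 0.20. In the EPI pairs ITGA3 was lower and ITGB1 higher after knockdown in 3 of 3 (limma adjusted p with the replicate block 0.49 and 0.82).

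**Figure D4:**
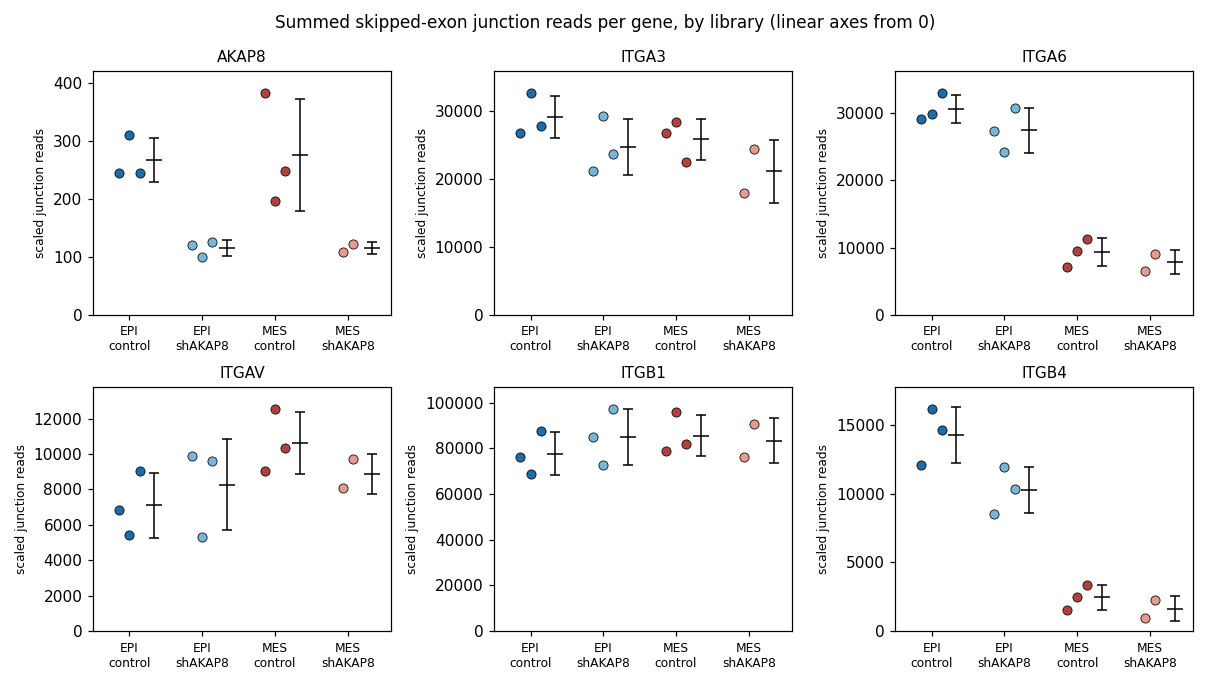
Summed junction reads at cassette exons, scaled to library size (y axes, linear from 0), of AKAP8 and the 5 integrin genes by group (x axis); points are libraries and bars give mean and SD. AKAP8 is lower in every knockdown library than in the controls of its state, and ITGA6 and ITGB4 are lower in every MES library than in every EPI library.

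The remaining integrin chains moved in both directions in EMT. Of 18 alpha chains 8 had a value, of which 2 rose and 2 fell, beside 12.5% of all genes changed. ITGA4 (log2 fold change 2.12), whose product binds fibronectin and VCAM1, and ITGA10 (1.62), a collagen-binding chain, rose, while ITGA2 (-1.84), another collagen-binding chain, fell with ITGA6. ITGA5, the main fibronectin-binding alpha chain, had a log2 fold change of 0.46 (limma adjusted p = 0.25). Of 8 beta chains 5 had a value, and 3 fell, ITGB4, ITGB6 (-2.27) and ITGB8 (-1.87), the latter 2 being partners of alpha V that bind latent TGF-beta. ITGB5, another partner of alpha V, was at 0.67 (limma adjusted p = 0.03), below the fold asked for. In the knockdowns 0 of these 13 chains changed, beside 0.189% of all genes in EPI and 2.27% in MES, which is no result about so few chains. ITGA5 fell in MES when values were scaled to total reads (log2 fold change -0.94, limma adjusted p = 0.092, with the usual scaling). Splicing events of alpha chains as a list were changed in 0 of 129 tested in EMT, and those of beta chains in 0 of 92. With 1.6% of all events changed, counts of 0 among so few are no result about the chains.

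Genes that work with these receptors were counted on lists of adaptors, hemidesmosome components, ligands and splicing regulators. Among the hemidesmosome genes, the laminin chains LAMB3 (-3.01) and LAMA3 (-2.86) and the collagen COL17A1 (-2.65) fell in EMT, and 0 rose. The plakin genes DST (0.85, limma adjusted p = 0.075) and PLEC (-0.22), which tie the complex to keratin, and the tetraspanin CD151 (-0.02) did not pass. Without EPI control 3 DST was at 1.08 and passed (limma adjusted p = 0.045), so that 1 hemidesmosome gene rose. Of 11 other ligands with a value, 7 rose and 0 fell (median 1.07; 4 rose without MES control 2, where LAMA1, THBS1 and TNC lost their calls), led by COL6A1 (8.05) and COL1A1 (7.02), with COL4A1 (2.34) and FN1 (1.86). COL6A1 stood at 10.4, 17.7 and 10.3 scaled reads in EPI controls and at 3842, 4257 and 2755 in MES controls. The median over all genes was 0.01, and 12.5% of all genes were changed. The call of TNC was lost without any 1 of EPI controls 1 and 3 and MES controls 2 and 3.

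Of 23 adaptors with a value, 6 rose and 2 fell in EMT (median 0.52, beside the 12.5% of all genes changed). Without MES control 2 only 3 rose, as LIMS1, PARVA and TNS1 lost their calls, and without EPI control 1 it was 4. TNS3 (2.06), a tensin, FERMT2 (1.99, kindlin-2, which activates integrins at the beta tail), TNS1 (1.33) and VCL (1.13, vinculin) rose, and TNS4 (-1.70) and FERMT1 (-1.45, kindlin-1) fell. The call of TNS1 was lost without EPI control 1, MES control 2 or MES control 3. FERMT2 was also the only adaptor that passed after knockdown. It had 837, 909 and 682 scaled reads in MES controls and 274 and 393 in MES shAKAP8, a log2 fold change of -1.29 (SE 0.23, limma adjusted p = 0.0096), and without MES shAKAP8 library 1 the call was lost (limma adjusted p = 0.11). In EPI it had 216, 170 and 222 in controls and 119, 104 and 123 after knockdown (-0.81, SE 0.21, limma adjusted p = 0.14). In both states all knockdown libraries lay below all controls, and the difference between the states (-0.48) had a limma adjusted p of 0.80. In their splicing, 7 of 280 adaptor events were changed in EMT (2.5%, all events 1.6%, among them events of ACTN1, FLNA, PTK2 and PXN), 1 of 249 in the EPI knockdown (FLNA, all events 0.0492%) and 2 of 275 in the MES knockdown (FLNA among them, all events 0.054%). Of hemidesmosome events 2 of 137 were changed in EMT, in DST and PLEC, a share of 1.46% and close to that of all events.

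Among 9 splicing regulators, 1 rose and 2 fell in EMT, where 12.5% of all genes were changed. Of their own splicing events 8 of 130 were changed in EMT (6.15%, all events 1.6%), all in MBNL1 and PTBP1. The epithelial regulators ESRP1 (-4.05) and ESRP2 (-3.45) fell and QKI (1.06) rose, while MBNL1 (0.80) and HNRNPM (0.70) passed by the adjusted p but not by the fold. In MES AKAP8, the target itself, was the only 1 of the 9 that changed with the knockdown (2.27% of all genes), and ESRP1, at 118, 243 and 282 scaled reads in MES controls and 93.0 and 115 in MES shAKAP8, had a log2 fold change of -0.95 (limma adjusted p = 0.081). Without MES control 1 it was -1.33 and passed (limma adjusted p = 0.0088). In EPI 0 of 9 passed (0.189% of all genes). The call of QKI in EMT was lost without EPI control 2. Relative to total reads, the median gene moves by -0.10 in EMT, and QKI then does not pass, so that 0 regulators rose and 2 fell. Adaptors then count 4 rising and 2 falling and ligands 5 rising.

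The introns beside the tail exons were searched for letters known from splicing regulators, within 250 bases on each side and on the transcribed strand. The letters were TGCATG (RBFOX), ACTAAC (QKI), TGGTGG (ESRP) and GGGG (hnRNP F and H). They are not particular to these proteins. An RNA to which the authors found hnRNPM bound contains UGGUGG, and their AKAP8 motif is a run of G flanked by A or U. That motif with its flanks was not searched for. Among 47661 tested cassette exons, 13.6% had TGCATG on either side, 5.55% ACTAAC, 21.9% TGGTGG and 67.1% GGGG. The first 80 bases of 2 introns and the last 80 of another are given 5′ to 3′ with the matches in capitals, for the ITGA6, ITGB1 and ITGB4 exons whose tail forms are named above. They are examples and not the only or the nearest matches. Of the 13 alternative tail exons 5 had TGGTGG on either side, 3 TGCATG, 2 ACTAAC and 11 GGGG. A match is a string of letters and not a site.
ITGA6 intron after the 130-nt exon, chr2:173366630-173366709, plus strand: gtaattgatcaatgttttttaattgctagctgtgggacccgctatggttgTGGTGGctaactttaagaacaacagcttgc
ITGB1 intron after the 81-nt exon, chr10:33195911-33195990, minus strand: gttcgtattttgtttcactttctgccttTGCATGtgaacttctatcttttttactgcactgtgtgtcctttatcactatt
ITGB4 intron before the 159-nt exon, chr17:73751056-73751135, plus strand: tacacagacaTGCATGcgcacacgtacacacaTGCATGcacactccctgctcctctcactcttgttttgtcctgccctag
ITGA6 had TGGTGG once, 51 bases after its exon, and none of the other 3 motifs. The ITGB1 exon had TGCATG 29 bases after it. The 159-nt exon of ITGB4 had TGCATG at 2 places before it, the nearer 43 bases away, and ACTAAC 203 bases before it. Other ITGB4 tail exons had matches as near, with TGGTGG 9 bases after the 150-nt exon and 47 bases before a 158-nt exon, and ACTAAC 32 bases after the 240-nt exon. The 240-nt and 159-nt exons border the same intron, so their TGCATG and ACTAAC matches are the same letters. Around the ITGA3 exon only GGGG was found, 5 times before it.

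AKAP8 binding was taken from eCLIP, in which RNA cross-linked to AKAP8 is immunoprecipitated (IP) and set against a size-matched input. The deposited list of each state merges 2 replicates, so it has no error. High-confidence peaks had a log2 of IP over input of at least 2 and a -log10 adjusted p of at least 3, which held for 21665 of 24637 peaks in EPI and 26228 of 30390 in MES. In EPI 46 of them, in 20 separate regions, lay on the transcribed strand of the 5 genes. ITGB4 had 27 in 8 regions, ITGA3 17 in 10 regions and ITGB1 2, and ITGA6 and ITGAV had 0. In MES there was 1, in ITGA3, with a log2 of 2.09, and 0 at the stricter limits of 3 and 5, where EPI kept 44. Whether this count differs between the states beyond the error between replicates was not tested, and ITGB4 RNA, a large share of the EPI count, was much lower in MES, while ITGA3 RNA was not called changed.

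Most peaks sat near the beginning of the genes and away from the tail exons. Of the 46 EPI peaks 45 were in the first intron and 0 in an exon. No share over all EPI peaks stands beside these counts, so they describe places and do not set these genes apart. In ITGA3 they spanned 545 to 5237 bases after the start of the transcript, with a log2 of IP over input from 3.02 to 5.2. The 2 in ITGB1 lay 295 and 18846 bases after the start, both in the first intron. Only 1 came within 1000 bases of a tail exon. It lay in ITGB4 at chr17:73750457-73750540, plus strand, in intron 33, 117 bases before the 240-nt exon, with a log2 of 3.49 and a -log10 adjusted p of 5.90. No peak of either state was listed in ITGA6, whose tail exon had the largest knockdown difference among the integrin events in MES.

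**Figure D5:**
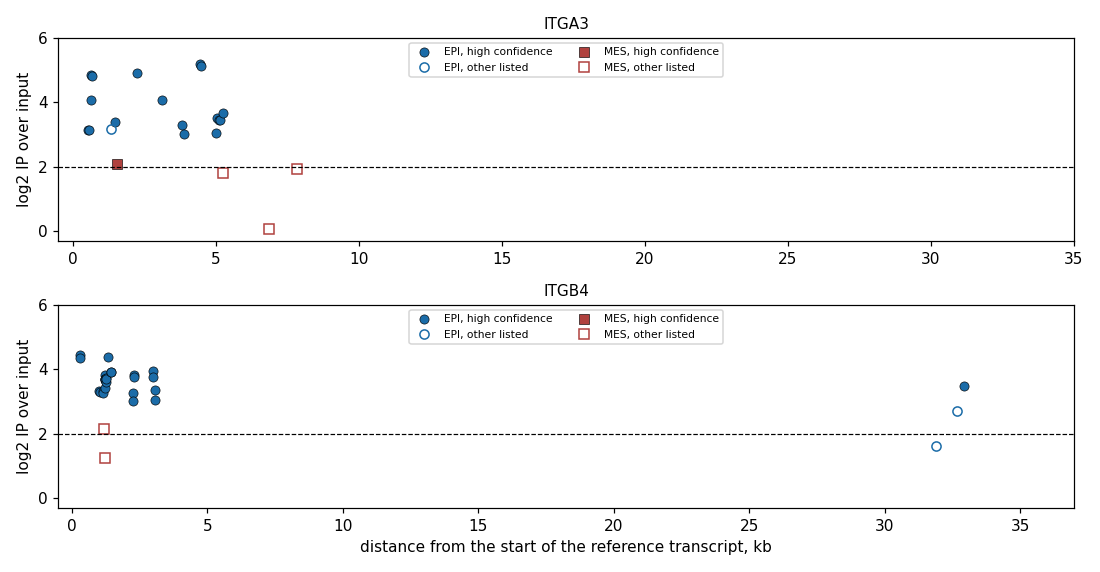
AKAP8 eCLIP peaks on the transcribed strand of ITGA3 (top) and ITGB4 (bottom), by distance from the start of the reference transcript (x axis, kb) and log2 of IP over input (y axis); the dashed line marks 2. Filled symbols are high-confidence peaks, circles EPI and squares MES; the EPI peaks crowd into the first 5.2 kb, apart from 1 near the end of ITGB4.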

How the data were processed

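The authors aligned the reads to GRCh37 with STAR, kept unique alignments and counted junction reads per event with rMATS on Gencode v24. Their 15 deposited tables give whole read counts for each library in comma lists. PSI was recomputed from these counts and the effective lengths in the tables. The 30 columns of per-library PSI, the authors' p-values and FDR, and the gene table (featureCounts and DESeq2), which holds the authors' fold changes, were not used. The eCLIP lists were merged by the authors, and their log2 of IP over input and -log10 adjusted p are as deposited.

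Inclusion and skipping reads were compared with a quasi-binomial likelihood-ratio F test, with dispersion moderated by limma 3.58.1 in R 4.3.3 (squeezeVar, robust, trend on reads of the rarer form, at least 1) over all events of a type, and Benjamini-Hochberg adjustment within each type and comparison. Gene values, the summed cassette-exon junction reads divided by median-of-ratios size factors, with at least 10 in 2 libraries, were tested with limma on log2(value + 1), all 11 libraries in 1 fit. Log2 fold changes are on that scale. Exons and peaks were located in Gencode v44 (GRCh37 mapping), newer than the authors' annotation. The scripts were tested on simulated data. A tail exon was named by its cassette event with the most reads, and for each gene the largest EMT difference was named. Genes, lists and rules were chosen with earlier results of these data known. EPI control and EPI shAKAP8 libraries at the same place in the tables deviated together in gene values (r = 0.282, 0.58 and 0.493), so their places were read as pairs, although the tables carry no replicate number. All printed p-values come from fits without pairs unless a replicate block is named. Results for a few list genes are not reported here.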

Additional observations from a re-analysis of the deposited data

How the results depend on the processing

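The counts of changed integrin events stayed at 0 in the MES knockdown and for the difference between the states under every alternative run, and the changed integrin genes stayed at 2 in EMT and 0 in the knockdowns. In EMT 3 events were changed at a ∆PSI of at least 5 points, and 1 (the retained intron of ITGA3, 23.3 points, adjusted p = 0.018, limma-moderated test) with a replicate block. With each library left out in turn the EMT count ran from 0 to 1 and the EPI knockdown count from 0 to 1, each single event being the ITGA6 tail exon or the ITGB4 exon pair. The ∆PSI of the ITGA6 tail exon in EMT ran from -10.4 to -8.89 points, and its adjusted p was at most 0.049 (limma on the logit of PSI). MES peaks went from 1 to 0 at the stricter limits.

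The tests in the report are without pairs unless a block is named. The replicate block by place in the list left 0 integrin events and 0 integrin genes changed in the EPI knockdown, and in EMT the ITGA3 cassette exon did not pass with it (adjusted p = 0.19, limma-moderated test). Over all features the block moved called events from 32 to 42 in the EPI knockdown, from 32 to 17 in the MES knockdown and from 1078 to 729 in EMT. It moved called genes from 17 to 33 in the EPI knockdown. MES control and MES shAKAP8 libraries at the same place correlated at 0.173 and 0.0216, and EPI and MES controls at 0.0788, 0.184 and 0.265. These values are mostly lower than in the EPI pairs, but each library compared correlated best with its own place. Whether these libraries share more than a number is not known.

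Calls over all events depended on the method. Limma on the logit of PSI gave 0 events in each knockdown and 315 in EMT, against 32, 32 and 1078. A dispersion trend on all reads gave 49 and 59 in the EPI and MES knockdowns, and no trend gave 61 in MES. With each library left out in turn, called events ran from 18 (without EPI control 1) to 115 (without EPI shAKAP8 library 1) in the EPI knockdown, from 9 (without MES control 1; 13 without MES control 2) to 240 (without MES shAKAP8 library 1, which leaves 1 library assumed to vary like the others) in the MES knockdown, and from 675 (without EPI control 1) to 1270 (without MES control 3) in EMT. Called genes ran from 3 (without EPI control 1) to 38 (without EPI shAKAP8 library 2) in the EPI knockdown, against 17, and from 63 (without MES shAKAP8 library 1) to 335 (without EPI shAKAP8 library 2) in the MES knockdown, against 205. Without a fold cutoff 2153 genes passed in EMT and 375 in the MES knockdown, against 1130 and 205. Depth limits the rarely used exons, with 0 to 20 including reads per library at 4 of them.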
